A study of Rattus norvegicus with 9 samples.

Results

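Genes of the epidermal growth factor (EGF) family, the ligand genes Areg, Tgfa and Nrg1 and the receptor genes Egfr and Erbb3, were followed in cultured rat sympathetic neurons exposed to BMP-7, a bone morphogenetic protein. They make up 5 of the 4736 genes that the Rat Genome U34A arrays name through a probe set of their own, and they were taken at every probe set annotated to one of them alone, 12 of 8740 in all: 1 for Areg, 1 for Tgfa, 7 for Nrg1, 1 for Egfr and 2 for Erbb3. The genes were chosen by their levels in control cultures and their differences from control after BMP-7, with Areg singled out from the rest, so those values are a description and carry no test. Superior cervical ganglia were taken from Holtzman rat embryos at day 21, and the dissociated neurons of all 3 groups were grown in serum-free medium with nerve growth factor at 100 ng/ml and were exposed to Ara-C, which depletes dividing non-neuronal cells. Cultures then received BMP-7 at 50 ng/ml for 6 hr (BMP6h) or for 24 hr (BMP24h), or medium alone over the longer of those periods (control), and the RNA of all groups was harvested on the same day in culture. Each group had 3 arrays from 3 independent dissections, with pooled cells behind each RNA sample. Every dissection gave 1 RNA sample of each group, so the groups are matched by dissection. Replicate 1 of each group went onto the chip in processing batch 1, where 10 µg of cRNA was used, and replicates 2 and 3 followed in batch 2 with 5 µg. Levels are given as log2 expression, on which a difference of 1 is a doubling, and "log2 fold change" is the difference of BMP-7 cultures from control on that scale, with its standard error (SE) from a linear model over all 9 arrays.

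EGF family ligands are made as membrane-bound precursors that are cut free at the cell surface, and they act through the ErbB receptor tyrosine kinases. Amphiregulin, encoded by Areg, and transforming growth factor alpha, encoded by Tgfa, bind the EGF receptor encoded by Egfr, whereas neuregulin-1, encoded by Nrg1, binds ErbB3 and ErbB4. ErbB3 has little kinase activity of its own and signals mainly in a pair with ErbB2. In peripheral ganglia neuregulin-1 from neurons is best known as a survival and growth signal for Schwann cells and their precursors, which carry ErbB3.

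Of the 5 genes, Areg lies at chr14:17256384-17265641, Tgfa at chr4:120175549-120258342, Nrg1 at chr16:65954084-67007484, Egfr at chr14:95378626-95551358 and Erbb3 at chr7:1579079-1600379 (RefSeq, build GRCr8). Promoter sequence, running from 250 bases before to 50 bases after a start position, was at hand for Areg, Tgfa and Egfr. For Areg and Egfr that position is the gene start in the coordinates above. For Tgfa it lies downstream of the gene start at 120175549. The Areg and Tgfa windows are printed because Areg was the member with the largest difference from control and Tgfa is a ligand of the same receptor without one. Each was searched on both strands for the cyclic AMP response element TGACGTCA, the AP-1 sites TGACTCA and TGAGTCA (reverse complements of each other), the GC-rich Smad motif GGCGCC and the Smad palindrome GTCTAGAC. Capitals mark the match. The Areg window is on the minus strand at chr14:17265592-17265891 and the Tgfa window on the plus strand at chr4:120175469-120175768 (RefSeq, GRCr8).
Areg: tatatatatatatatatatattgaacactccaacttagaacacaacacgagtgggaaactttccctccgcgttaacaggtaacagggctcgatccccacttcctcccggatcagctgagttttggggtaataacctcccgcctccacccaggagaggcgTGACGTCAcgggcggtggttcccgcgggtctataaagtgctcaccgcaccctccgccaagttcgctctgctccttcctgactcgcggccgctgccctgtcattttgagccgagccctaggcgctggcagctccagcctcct
Tgfa: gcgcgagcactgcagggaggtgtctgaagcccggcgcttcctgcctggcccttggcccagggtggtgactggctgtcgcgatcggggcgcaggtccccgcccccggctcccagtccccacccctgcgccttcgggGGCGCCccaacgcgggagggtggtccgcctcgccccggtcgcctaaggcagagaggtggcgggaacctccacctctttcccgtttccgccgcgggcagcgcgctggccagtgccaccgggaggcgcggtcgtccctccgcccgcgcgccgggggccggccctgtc
The Areg window held TGACGTCA, with its first base at -91 from the start, a motif found in 612 of the 33469 rat promoter windows of the same length (1.83%). The Tgfa window held GGCGCC with its first base at -115 from the start position of that window, and 11.0% of windows held that motif. Because that position lies downstream of the Tgfa gene start given above, the match falls inside the printed range of the gene. None of the 5 motifs was in the Egfr window. The AP-1 motif was in 4.63% of all windows and GTCTAGAC in 0.197%. The GC content was 56.0% in the Areg window, 76.7% in that of Tgfa and 64.3% in that of Egfr, against a median of 51.7% over all windows. A match is a match of letters only, and no binding was measured here.

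Areg was the only member that was lower on every array of both BMP-7 groups than on every control array. Its single probe set, X55183_at, read 4.98, 5.24 and 5.21 on the BMP6h arrays, 4.52, 4.79 and 4.96 on the BMP24h arrays, and 6.46, 5.93 and 5.79 on the control arrays. The 3 groups did not overlap, although the gap between the brightest BMP24h array and the dimmest BMP6h array was narrow. The means were 5.14 ± 0.14 in BMP6h, 4.76 ± 0.22 in BMP24h and 6.06 ± 0.35 in control (SD, n = 3 each), so the order of levels was BMP24h, BMP6h, control. BMP6h differed from control by a log2 fold change of -0.92 (SE 0.21), a level 0.529 times that of control, and BMP24h by -1.31 (SE 0.21), a level 0.405 times that of control. At 24 hr only 4 of the 8740 probe sets had a more negative log2 fold change than Areg, and at 6 hr 25 had. BMP24h was lower than BMP6h by a further difference of -0.39 (SE 0.21), which is smaller than 2 standard errors. The probe set was dim in all groups: 18.0% of probe sets were dimmer than it in BMP6h, 12.8% in BMP24h and 34.3% in control.

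The lower level of Areg was seen in both processing batches, with a larger difference in the batch that held 1 array of each group. In batch 1 the difference from control was -1.47 at 6 hr and -1.94 at 24 hr, and in batch 2, with 2 arrays of each group, it was -0.64 and -0.99. Control replicate 1, the brightest array for Areg, belonged to batch 1. Without that array Areg still differed from control by -0.62 in BMP6h and -1.01 in BMP24h. Bulk RNA cannot separate less Areg RNA per cell from fewer cells that express it.

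**Figure D1:**
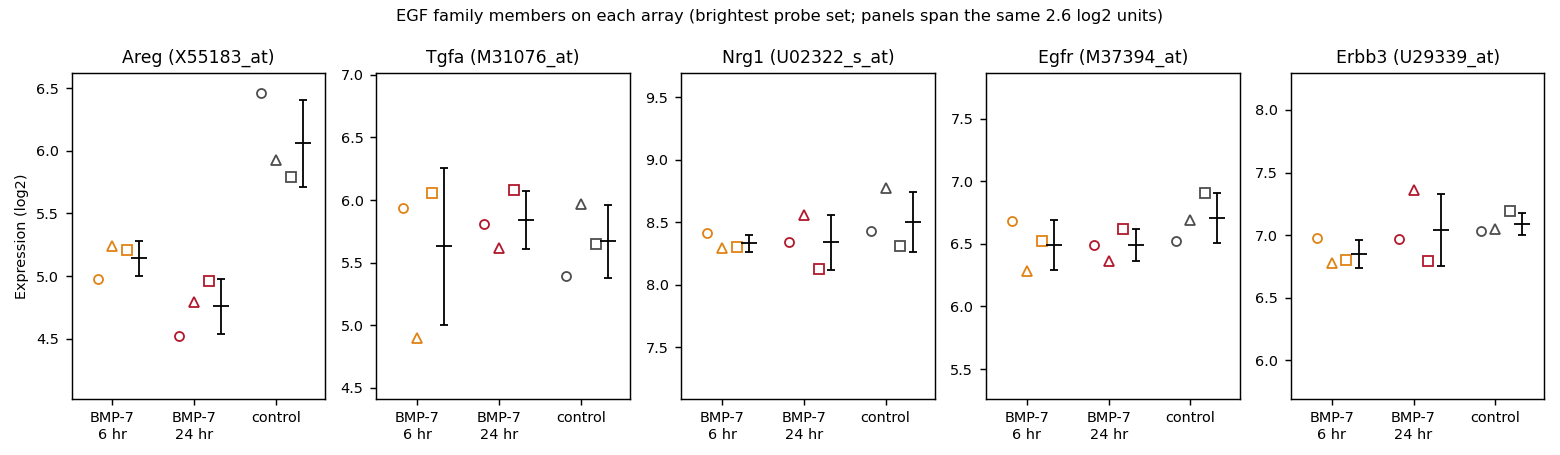
Log2 expression of each member at its brightest probe set on the 9 arrays. Groups run from BMP-7 6 hr through BMP-7 24 hr to control; circles, triangles and squares are replicates 1, 2 and 3, bars are the mean ± SD (n = 3), and all panels span the same number of log2 units. Areg read 4.98 to 5.24 in BMP6h and 4.52 to 4.96 in BMP24h, below all control arrays (5.79 to 6.46), while the groups of the other 4 panels overlap except Erbb3 in BMP6h (6.78 to 6.98) against control (7.03 to 7.19).

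Tgfa, the other member that encodes a ligand of the EGF receptor, differed from control by less than its spread. M31076_at read 5.94, 4.90 and 6.06 in BMP6h, 5.81, 5.62 and 6.08 in BMP24h, and 5.39, 5.97 and 5.65 in control. The groups overlapped, and BMP6h replicate 2 was the lowest of the 9 arrays. BMP6h differed from control by -0.04 and BMP24h by 0.17 on the log2 scale (SE 0.32 for each). Without BMP6h replicate 2 the value at 6 hr was 0.36 (SE 0.19). The means lay in the order BMP6h (5.63 ± 0.63), control (5.67 ± 0.29), BMP24h (5.84 ± 0.23; SD, n = 3 each), and no neighbours in that order differed beyond their spread.

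Nrg1 was measured by 7 probe sets, and they did not move together. The brightest, U02322_s_at, read 8.41, 8.29 and 8.30 in BMP6h, 8.34, 8.56 and 8.13 in BMP24h, and 8.43, 8.77 and 8.31 in control, with overlapping groups. On the log2 scale BMP6h differed from control by -0.17 and BMP24h by -0.16 (SE 0.17 for each), and the means were 8.33 ± 0.07 in BMP6h, 8.34 ± 0.22 in BMP24h and 8.50 ± 0.24 in control (SD, n = 3 each). At 6 hr 5 of the 7 probe sets were lower than control, with log2 fold changes between -0.32 and -0.13, and the other 2 were higher, M92430_at by 0.33 (SE 0.27) and U02318_at by 0.58 (SE 0.44). At 24 hr all 7 lay between -0.27 and 0.11. The probe sets U02315_g_at and U02316_s_at were lower on every BMP6h array than on every control array. For U02316_s_at the gap was narrow, with 4.90 on the brightest BMP6h array and 4.92 on the dimmest control array. That probe set was dim, with 15.5% of probe sets dimmer in control. U02315_g_at read 6.50, 6.09 and 6.47 in BMP6h and 6.59, 6.60 and 6.83 in control. In BMP24h it read 6.49, 6.52 and 6.66, which overlaps the control arrays. The log2 fold change was thus -0.32 for BMP6h and -0.12 for BMP24h (SE 0.16 for each).

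The 2 higher Nrg1 values at 6 hr came from a single array. U02318_at read 5.60, 7.04 and 5.28 in BMP6h, 5.54, 5.49 and 5.32 in BMP24h, and 5.67, 5.55 and 4.95 in control, so that BMP6h replicate 2 alone stood high. M92430_at read 6.52, 7.24 and 6.34 in BMP6h, 6.47, 6.78 and 6.19 in BMP24h, and 6.57, 6.39 and 6.15 in control, with the same array highest. Without BMP6h replicate 2 the log2 fold change at 6 hr was 0.001 for U02318_at and 0.03 for M92430_at. The lower probe sets also moved without that array, to -0.15 (U02322_s_at), -0.17 (U02315_g_at), 0.05 (U02320_s_at), -0.18 (U02315_at) and -0.08 (U02316_s_at). That array stood apart from its group over the whole chip, with 9.99% of its probe sets over 1 unit away from the average of its 2 companions on the log2 scale, against 0.0229% to 4.21% for the other 8 arrays set against their own groups. The 4.21% is that of BMP6h replicate 3, whose companions include replicate 2. Removal of the batch difference ties the replicate 1 arrays together, so the shares of the arrays are not fully comparable. Among the 12 member probe sets BMP6h replicate 2 was more than 0.5 units away at 4 and more than 1 unit away at 2. Areg was not among them (0.14 higher), and its log2 fold change at 6 hr without that array was -0.97.

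**Figure D2:**
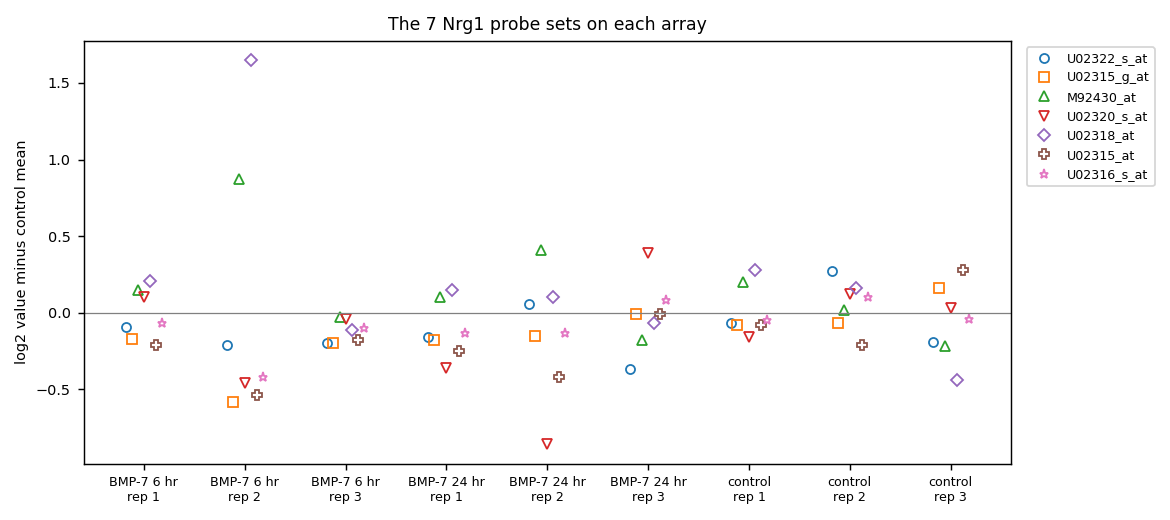
The 7 Nrg1 probe sets on each array, as log2 value minus the mean of the 3 control arrays for that probe set; each symbol is a probe set and each column an array. In BMP-7 6 hr replicate 2, U02318_at (7.04) and M92430_at (7.24) stand above all other arrays while the remaining 5 probe sets lie below their control mean.

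Of the receptors, Egfr was slightly lower than control at both times. M37394_at read 6.68, 6.28 and 6.52 in BMP6h, 6.49, 6.36 and 6.62 in BMP24h, and 6.52, 6.69 and 6.91 in control. The groups overlapped, and the means were 6.49 ± 0.20 in BMP6h, 6.49 ± 0.13 in BMP24h and 6.71 ± 0.20 in control (SD, n = 3 each). The log2 fold change was -0.22 at each time (SE 0.16). Within batch 1 the difference was 0.15 at 6 hr and -0.03 at 24 hr, and within batch 2 it was -0.40 and -0.31, so the lower values came from batch 2. At 6 hr the log2 fold change was -0.10 without BMP6h replicate 2 and -0.11 without control replicate 3.

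Erbb3, the neuregulin receptor of Schwann cells and their relatives, had 2 probe sets with opposite signs at 6 hr. U29339_at read 6.98, 6.78 and 6.80 in BMP6h, 6.97, 7.36 and 6.79 in BMP24h, and 7.03, 7.05 and 7.19 in control. All BMP6h arrays lay below all control arrays, whereas the BMP24h arrays spread across both. U52530_s_at read 6.70, 7.27 and 6.61 in BMP6h, 6.72, 6.86 and 6.50 in BMP24h, and 6.79, 6.70 and 6.48 in control, with overlapping groups. The log2 fold changes at 6 hr were -0.24 (SE 0.17) for U29339_at and 0.21 (SE 0.21) for U52530_s_at, and at 24 hr they were -0.05 and 0.04 with the same errors. BMP6h replicate 2 was the highest array for U52530_s_at, and without it that probe set differed from control by -0.02 at 6 hr. The means of U29339_at were 6.85 ± 0.11 in BMP6h, 7.04 ± 0.29 in BMP24h and 7.09 ± 0.09 in control (SD, n = 3 each).

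Set side by side, the 11 probe sets other than that of Areg had log2 fold changes between -0.32 and 0.58 at 6 hr (median -0.17, 3 higher and 8 lower) and between -0.27 and 0.17 at 24 hr (median -0.06, 4 higher and 7 lower). Over all 8740 probe sets the median was -0.02 at 6 hr and 0.01 at 24 hr, with 44.9% and 51.8% higher. At 6 hr 1 of the 11, U02315_g_at of Nrg1, was more than 2 standard errors from control, and 2 were within 1. Without BMP6h replicate 2, U02315_g_at differed from control by -0.17 (SE 0.12), which is less than 2 standard errors. At 24 hr 0 were beyond 2 standard errors and 9 were within 1. Both comparisons use the same control arrays.

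**Figure D3:**
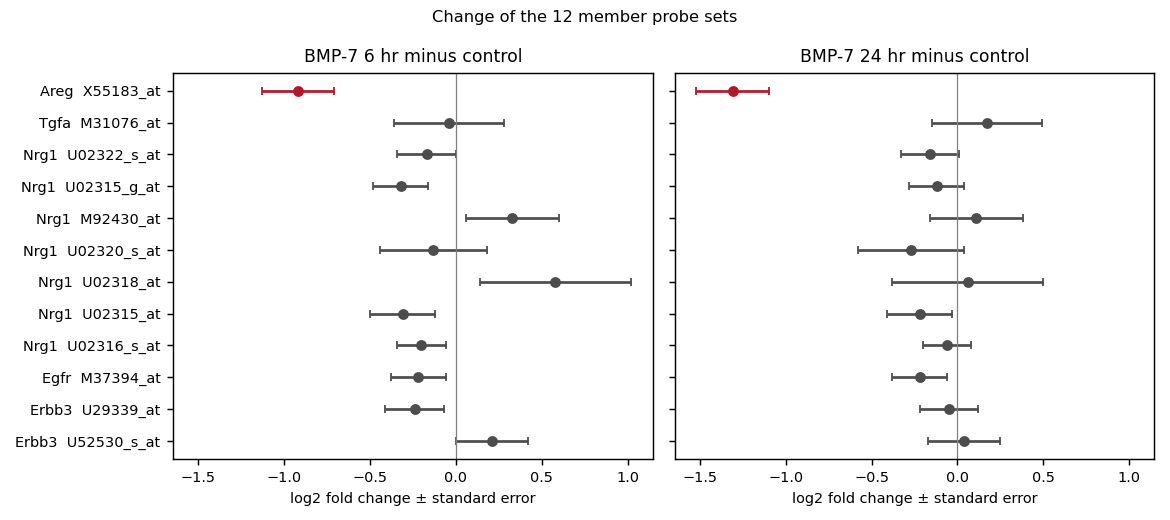
Log2 fold change of the 12 member probe sets at 6 hr (left) and 24 hr (right) of BMP-7 against control; points are the estimates and bars ± 1 standard error. Areg lies at -0.92 and -1.31, and the other 11 lie between -0.32 and 0.58 at 6 hr and between -0.27 and 0.17 at 24 hr.

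With Benjamini-Hochberg adjustment of the limma p-values across the 8740 probe sets, 0 of the 12 member probe sets had an adjusted p under 0.05 in BMP6h against control, where 0.0458% of all probe sets did, 0 in BMP24h against control, where 0.217% did, and 0 in BMP24h against BMP6h, where 0% did. An ordinary two-way analysis of variance, adjusted the same way, also gave 0 in each. An unadjusted p under 0.05 was found for 1, 1 and 0 of the 12. The Methods of the study set looser thresholds, a fold change of 1.2 or more together with p under 0.05 before adjustment, and at these Areg was the 1 member counted at 6 hr (1.73% of all probe sets) and at 24 hr (3.34%), and no member was counted between the 2 times (2.92%). Groups without overlap were found at 4 member probe sets at 6 hr, those of Areg, U02315_g_at and U02316_s_at of Nrg1 and U29339_at of Erbb3, all lower, against 10.6% of all probe sets in either direction. Areg was the only such member at 24 hr (12.7% of all) and between the 2 times (9.67% of all). Without BMP6h replicate 2 the counts at 6 hr were 0 past the adjusted test and 1 at the looser thresholds. As the members were chosen on the contrasts with control, nothing is read from these counts.

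Among the other ligands of the family, Hbegf, which encodes heparin-binding EGF-like growth factor, a ligand of the EGF receptor and ErbB4, was higher where Areg was lower. L05489_at read 7.26, 7.01 and 7.29 in BMP6h, 6.76, 7.03 and 7.01 in BMP24h, and 6.29, 6.65 and 5.65 in control, without overlap between either BMP-7 group and control. BMP6h was higher than control by 0.99 (SE 0.25, adjusted p = 0.887, limma) and BMP24h by 0.73 (SE 0.25, adjusted p = 1), so neither passed the test. The other Hbegf probe set, rc_AI059540_at, gave -0.14 and 0.01, and the probe sets thus disagree. Egf, the founding member of the family, had log2 fold changes of -0.56 and -0.32 (adjusted p = 0.887 and 1), and Nrg2, a neuregulin, had 0.17 and 0.23. Of the receptors, Erbb2 had 0.23 at 6 hr and 0.14 at 24 hr, and Erbb4 had -0.30 and -0.16, each with an SE of 0.22 or 0.23 and none past the test. BMP6h replicate 2 was the highest array for Erbb2 (7.22) and the lowest for Erbb4 (4.06). The Erbb4 probe set was dim, with 13.6% of probe sets dimmer in control, and the other Erbb4 probe set gave 0.07 at 6 hr.

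Further along the pathway, 50 of 79 listed genes were measured, each taken at its brightest probe set. Some of them are targets or brakes of growth factor signaling that were known to differ in these arrays when the list was drawn up. At 6 hr 24 were higher and 26 lower than control (median log2 fold change -0.03), and at 24 hr 27 were higher and 23 lower (median 0.04). At these probe sets 0 of 50 passed the adjusted test of limma in BMP6h against control, BMP24h against control or BMP24h against BMP6h, and the unadjusted p was under 0.05 for 6, 7 and 4 of them, against 1.73%, 3.40% and 2.96% of all probe sets. The two-way analysis of variance also gave 0 in each comparison. The looser thresholds of the Methods counted 4 higher and 2 lower genes at 6 hr and 5 higher and 2 lower at 24 hr, against 1.73% and 3.34% of all probe sets in either direction, and nothing is read from these shares because the list was drawn up with results known. None of the 4 measured sheddase and processing genes, the 16 genes of the adaptors with the Ras and PI3-kinase branch or the 4 MAP kinase genes was counted at either time, with list medians of 0.09, -0.04 and 0 at 6 hr and 0.07, -0.06 and 0.02 at 24 hr.

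The genes that were counted were Hbegf, feedback inhibitors and early targets. Dusp1, a phosphatase that inactivates MAP kinases, read 9.32, 9.61 and 9.11 in BMP6h, 8.87, 9.00 and 8.98 in BMP24h, and 8.68, 8.64 and 8.38 in control at U02553cds_s_at, with every BMP-7 array above every control array. BMP6h differed from control by 0.78 (SE 0.16, adjusted p = 0.887) and BMP24h by 0.39 (adjusted p = 1) on the log2 scale. At a dimmer Dusp1 probe set, S81478_s_at, the gene rose at 6 hr by 1.14 (SE 0.13, adjusted p = 0.0483, limma), the 1 pathway probe set past the test, and that call was kept in 6 of 19 alternative settings. The third Dusp1 probe set had the largest of the 3 values, 1.32. Ptprr, a tyrosine phosphatase that acts on ERK, read 9.16, 9.21 and 9.14 in BMP6h, 8.32, 8.24 and 8.63 in BMP24h, and 9.34, 9.10 and 9.30 in control. Only the BMP24h arrays were low, with a log2 fold change of -0.85 against control (SE 0.14, adjusted p = 0.111).

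Early targets went both ways. Egr1, an immediate early transcription factor, read 8.66, 8.20 and 9.31 in BMP6h, 10.67, 9.95 and 11.14 in BMP24h, and 9.33, 9.09 and 9.64 in control. It was highest at 24 hr, with a log2 fold change of 1.24 against control (SE 0.37, adjusted p = 0.734) and 1.87 against BMP6h (adjusted p = 0.414), and its 4 probe sets ranged between 0.06 and 1.24 at 24 hr. Klf10, a zinc finger gene first described as induced by TGF-beta, differed from control by 0.72 in BMP6h and 0.74 in BMP24h (SE 0.17, adjusted p = 0.887 and 0.3), with 0.02 and 0.01 at its lowest probe set. Junb, an AP-1 subunit, had 0.57 and 0.37 (SE 0.16), and its other probe set had 0.20 and -0.03. Atf3, a stress-induced factor of the ATF and CREB family, had -0.65 in BMP6h and -1.01 in BMP24h on the same scale (SE 0.22, adjusted p = 0.887 and 0.283), and Jun had -0.52 at 6 hr (SE 0.21), with its 4 probe sets between -0.52 and 0.05. Between the 2 BMP-7 groups Spry1, an inhibitor of receptor tyrosine kinase signaling, was higher at 24 hr than at 6 hr by 0.69 (SE 0.27, adjusted p = 0.939).

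**Figure D4:**
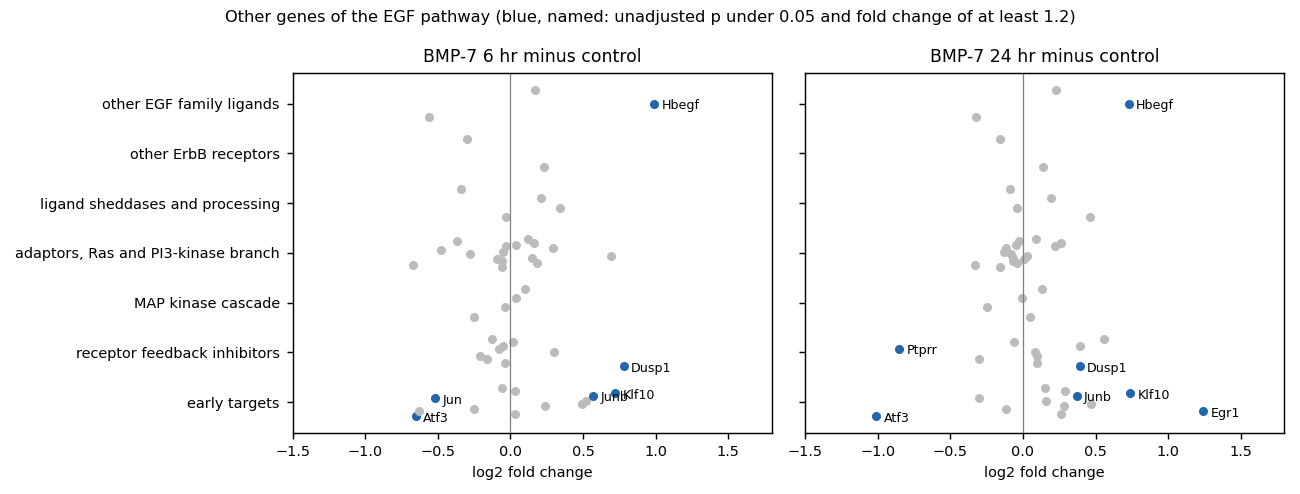
Log2 fold change of the 50 measured pathway genes at 6 hr (left) and 24 hr (right) of BMP-7 against control, 1 point per gene at its brightest probe set, in rows by list. Blue points with names passed the looser thresholds of the Methods; none had an adjusted p under 0.05. All genes named at both times keep their sides. Hbegf (0.99 and 0.73), Dusp1 (0.78 and 0.39), Klf10 (0.72 and 0.74) and Junb (0.57 and 0.37) are higher, and Atf3 (-0.65 and -1.01) is lower. The signaling rows hold no named gene.

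The genes whose values followed Areg most closely over the 9 arrays, among 1931 probe sets of other genes with an SD of at least 0.5 times its own, were Atf3 (Pearson r = 0.83), Cdo1 (0.81), Cited2 (0.81), Mc4r (0.80) and Adcyap1 (0.78). Cdo1 encodes cysteine dioxygenase, Cited2 a CBP/p300-binding transcriptional regulator, Mc4r a melanocortin receptor and Adcyap1 the neuropeptide PACAP. The correlations are descriptive, since the arrays share 3 conditions and 2 batches and the genes were picked for r. Atf3 read 7.94, 8.57 and 7.92 in BMP6h, 7.92, 7.94 and 7.48 in BMP24h, and 8.86, 8.68 and 8.84 in control. As with Areg, no BMP-7 array of Atf3 reached the lowest control array, but the BMP6h and BMP24h arrays overlapped. Cdo1 had the same order as Areg with no overlap among the 3 groups, with means of 7.80 ± 0.16 in BMP6h, 7.26 ± 0.31 in BMP24h and 8.43 ± 0.30 in control (SD, n = 3 each). Mc4r and Adcyap1 were below every control array only at 24 hr. The log2 fold changes were -0.28 for Mc4r and -0.19 for Adcyap1 at the early time, and -1.28 and -1.05 at the late one. Most opposed to Areg were Nog (r = -0.95), which encodes the BMP antagonist noggin, Id3 (-0.91), a well-known BMP target that encodes an inhibitor of DNA binding, and Ppat (-0.91), a gene of purine synthesis. Id3 read 9.73, 9.78 and 9.70 in BMP6h, 9.84, 9.60 and 9.61 in BMP24h, and 7.82, 7.77 and 8.33 in control. Without BMP6h replicate 2 the r of Atf3 was 0.87 and that of the other 7 genes stayed between 0.78 and 0.82 or between -0.91 and -0.95. TGACGTCA was in none of the windows at hand for Cited2, Mc4r, Adcyap1, Nog, Id3 and Ppat, and GGCGCC was in those of Cited2 and Nog.

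**Figure D5:**
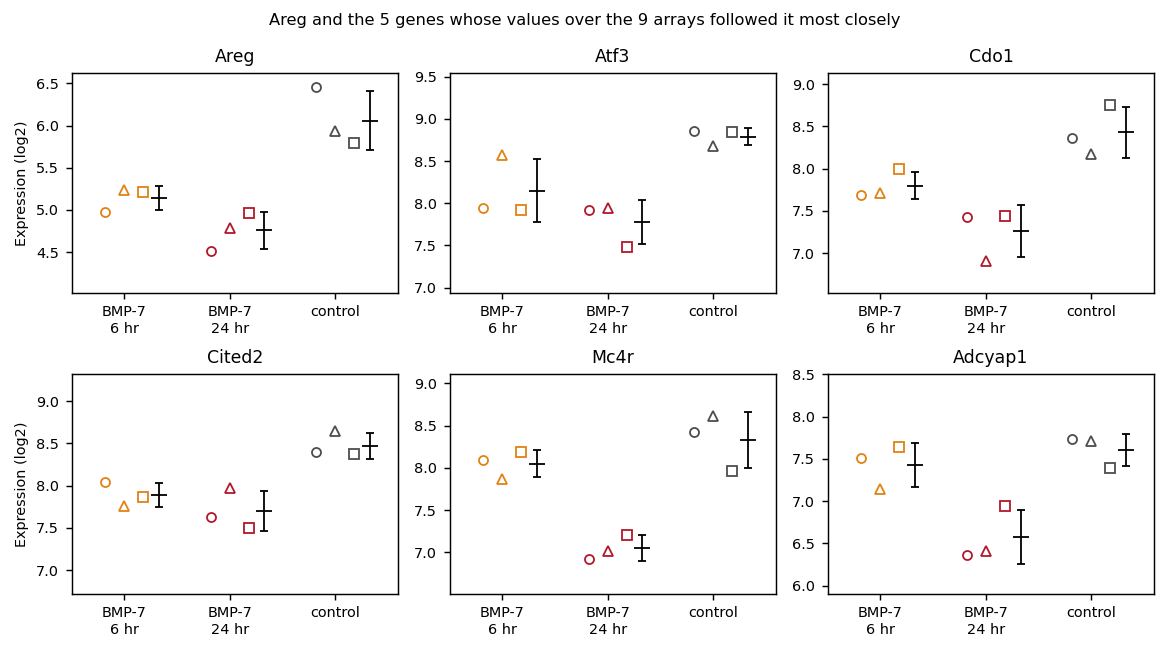
Log2 expression of Areg and the 5 genes with the highest Pearson r to it over the 9 arrays; circles, triangles and squares are replicates 1, 2 and 3 and bars the mean ± SD (n = 3). Areg, Atf3, Cdo1 and Cited2 are lower than control in both BMP-7 groups, while Mc4r (7.05 ± 0.15) and Adcyap1 (6.57 ± 0.32) are lower than every control array only at 24 hr.

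Markers of neurons and of other cells were both measured in the cultures, and levels of different probe sets are not compared. In control the noradrenergic markers Th and Dbh, which encode enzymes of noradrenaline synthesis, read 13.49 ± 0.01 and 11.94 ± 0.04, S100b of glia read 7.61 ± 0.31, and of the fibroblast and matrix genes Col1a1 read 10.30 ± 0.08 and Vim 11.46 ± 0.05 (SD, n = 3). None of the markers was at 0, a level that these log2 values do not reach. The 12 of 16 glial and Schwann cell markers measured summed to 6028 to 6142 units of linear expression in BMP6h, 5897 to 6536 in BMP24h and 5671 to 6665 in control. The 19 of 19 fibroblast and matrix markers summed to 23867 to 25437 in BMP6h, 21647 to 24401 in BMP24h and 23155 to 25910 in control, with 12 of the 19 lower than control at 24 hr (median log2 fold change -0.18). The 13 of 16 neuronal markers summed to 55750 to 59394 in BMP6h, 53739 to 58829 in BMP24h and 56529 to 59361 in control. At 24 hr 10 of these were lower than control and 3 higher (median log2 fold change -0.06). The groups overlapped in every sum, also in those of 10 of 12 endothelial and mural and 10 of 12 macrophage and blood markers, and no marker passed the adjusted test at either time. The part of these cells in the values of Areg, Egfr and Erbb3 was not tested.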

How the data were processed

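The 9 RNA samples (3 each for BMP6h, BMP24h and control), each pooled from several cultures, were measured on Rat Genome U34A arrays. The deposited values are log2 expression values made by the authors with RMA in Partek, followed by removal of the batch difference, which left batch means that differ by at most 6.7e-05. They run between 2.69 and 14.38, with array medians of 6.79 to 6.88. Array precision is limited by the number of arrays. Of 8799 probe sets 59 controls were left out, and of the 8740 others 7006 name 1 gene, 308 several and 1426 none, by GEO's platform annotation with symbols updated through Entrez identifiers. Contrasts came from 1 linear model of treatment group plus processing batch in limma 3.58.1 (R 4.3.3), which leaves 5 residual degrees of freedom, with Benjamini-Hochberg adjustment over 8740 probe sets. Dissection had no term in that model, since the labels do not say which arrays share one. The fit was tested on simulated data. Named genes were all members, the genes most like or opposed to them by r, and pathway genes past the thresholds of the Methods or the adjusted test. The members and lists were chosen with earlier results of these data known. The alternatives were the two-way analysis of variance, a replicate block, dropping the batch term, batch 2 alone, dim probe sets left out, an intensity trend, quantile normalization again, fits of 2 groups only, median centring, array weights (gene-by-gene method), the mean over a gene's probe sets and leaving out each array.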

Additional observations from a re-analysis of the deposited data

How the results depend on the processing

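Areg kept its lower level at 6 hr and at 24 hr in all 18 alternatives that measured it, but many of these could not change the estimate. The two-way analysis of variance, the intensity trend, the replicate block, the fit without a batch term and that of 2 groups altered only its error. Leaving out an array of the group not compared also left the estimate as it was. In batch 2 alone it differed from control by -0.64 in BMP6h and -0.99 in BMP24h. With array weights BMP24h differed by -1.65, and the value ranged between -1.06 and -0.62 at 6 hr and between -1.45 and -1.01 at 24 hr when single arrays were left out. With array weights 1 member (Areg) passed the adjusted test at 6 hr and 1 at 24 hr, and without a batch term 1 (Areg) did at 24 hr. As Areg was singled out on these same contrasts with control, nothing is read from those calls. At the thresholds of the Methods the members counted at 6 hr, 1 in the reported fit, were 2 without a batch term, 3 with the replicate block, 2 with array weights and 0 without dim probe sets, a filter that keeps 2 of the 12 and drops Areg. At 24 hr they were 0 without dim probe sets and 1 to 2 when single arrays were left out. Between the times they were 1 for the 2 groups alone, 1 with array weights and 0 to 1 when single arrays were left out. These member counts at the thresholds of the Methods are given without the calls over all probe sets in the same alternatives. They therefore cannot show whether the members changed apart from the rest of the chip, and nothing is read from them. The pathway genes past the adjusted test, 0 in the reported fit, were 5 at 6 hr, 5 at 24 hr and 2 between the times with array weights. They were 1 at 24 hr without a batch term, without dim probe sets and with an intensity trend (Ptprr), and 1 with the replicate block at 24 hr and 1 between the times (Egr1). The cause of these differences was not tested.

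Over all probe sets the adjusted test counted 4 at 6 hr, 19 at 24 hr and 0 between the times in the reported fit. The counts were 0, 0 and 0 in the two-way analysis of variance and in batch 2 alone, 9, 38 and 6 without a batch term, 4, 18 and 5 with the replicate block, 9, 42 and 10 without dim probe sets, 0, 10 and 0 for the 2 groups alone, 10, 42 and 7 with an intensity trend and 29, 280 and 198 with array weights, which gave BMP6h replicate 2 a weight of 0.093. With single arrays left out they were 0 to 3, 0 to 26 and 0. The deviations of same-numbered arrays from their group means correlated between -0.74 and 0.53 over 9 pairs. Removal of the batch difference ties the values of replicate 1 together, and the labels do not say that a number marks a dissection, so whether same-numbered arrays are pairs was not settled. Dusp1 at S81478_s_at had adjusted p-values between 0.000229 (array weights) and 0.971 (batch 2 alone). The 3 arrays a group and a dim Areg probe set limit the precision.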

Other observations

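The other members had near neighbours of their own over the 9 arrays, as descriptions of arrays that share conditions and batches. Egfr was followed most closely by Tgfb3, a ligand of the TGF-beta family (Pearson r = 0.98, lower by log2 fold changes of -0.38 in BMP6h and -0.34 in BMP24h), Map2k1, the MAP kinase kinase MEK1, at rc_AI178835_at (0.98, with -0.74 and -0.65, against -0.04 and -0.25 at its brightest probe set), and Otx1, a homeobox gene (0.97). Erbb3 at U29339_at was followed by Hes2, Klhl41 and Vom2r46 (r = 0.99, 0.98 and 0.97), Nrg1 at U02322_s_at by Dnase1l3, Tmem71 and Enpp2, which encodes autotaxin (0.95, 0.92 and 0.91), and Tgfa by Gstk1, Abcc6 and Rabep2 (0.97, 0.96 and 0.95). Without BMP6h replicate 2 the values for the neighbours of Tgfa were 0.92, 0.91 and 0.88.

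Probe sets of 1 member could run against each other. Over the 9 arrays the Nrg1 probe sets U02315_g_at and U02318_at correlated at r = -0.91 and U02315_g_at and M92430_at at r = -0.88, and U02315_g_at and U52530_s_at of Erbb3 correlated at r = -0.90. BMP6h replicate 2 was the lowest array for U02315_g_at and the highest for the other 3.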
